A study of Drosophila melanogaster with 7 samples.

Results

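The proteasome subunit genes of *Drosophila melanogaster* were taken as every gene whose FlyBase symbol begins with Prosalpha, Prosbeta, Rpn or Rpt followed by a digit. The rule found 48 of the 17699 genes of the count table. Of these, 32 are canonical subunits, and the other 16 carry a T or an R after the subunit number and are related copies, called paralogues here. The canonical genes comprise 14 of the core particle (7 in the alpha ring and 7 in the beta ring) and 18 of the regulatory particle (6 base ATPases, 4 base non-ATPases and 8 lid subunits).

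Transcripts were measured by RNA sequencing of total RNA from hand-staged embryos at stage 5, when the zygotic genome is activated, in 3 HP1-KD and 4 control libraries. The mothers of HP1-KD embryos were the offspring of Bloomington stock 33400, a TRiP line for RNA interference against HP1, and of the Gal4 driver line of Bloomington stock 7063, so that the knockdown acted in the female germ line and the embryo received less HP1 from its mother. Control embryos are labelled Bloomington stock 36303 with no driver line named, and all flies were reared at 25 °C. By label the groups thus also differ in stock and driver, which cannot be told apart from the knockdown. The mothers of HP1-KD embryos were mated to their brothers, and 1 RNA interference line stands for the knockdown. The labels do not say how many embryos a library holds or whether libraries are separate collections. The p-values therefore measure the spread between these libraries only.

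The proteasome is the protease that degrades proteins tagged with ubiquitin. Its core particle is a barrel of stacked rings, in which the alpha rings gate the entrance and the beta rings hold the proteolytic sites. The regulatory particle caps the barrel: the ATPases of its base unfold and thread the substrate, while the other base subunits and the lid bind ubiquitin and remove it. In the early embryo many proteins supplied by the mother are cleared through this route.

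The target of the knockdown was checked first. *Su(var)2-5*, which encodes HP1, had 81.5, 99.0 and 82.4 CPM in HP1-KD libraries, against 189, 217, 275 and 230 CPM in control libraries. CPM are normalised counts per 1000000 counts, scaled between libraries with TMM factors (a trimmed mean of ratios) over the tested genes. The groups did not overlap, and the mean in HP1-KD libraries was 38.5% of the control mean (log2 fold change −1.38, SE 0.15, edgeR adjusted p = 0.00231). Throughout, log2 fold changes are HP1-KD over control. Unless another test is named, p-values come from edgeR's quasi-likelihood test with Benjamini-Hochberg adjustment over the 8008 genes tested. An adjusted p under 0.05 is called. Counts at an unadjusted p under 0.05 are given without the share over all genes tested and are not read as an excess.

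Libraries held 8678092 to 16983585.5 counts, of which ribosomal RNA genes took 37.3% to 80.7% in HP1-KD and 15.3% to 47.2% in control libraries. The summed level of 10 zygotic genes of stage 5 lay between 1561 and 2424 CPM in HP1-KD and between 2821 and 2981 CPM in control libraries, with none of the 10 called by edgeR and 5 lower at an unadjusted p under 0.05. That of 5 maternal transcripts lay between 552 and 756 CPM in HP1-KD and between 237 and 695 CPM in control libraries. HP1-KD replicate 1 stands apart through the yolk protein genes *Yp1*, *Yp2* and *Yp3* (114, 84.9 and 117 CPM, at most 2.11 CPM each in any other library), which ovarian follicle cells and the fat body express. The chorion and vitelline membrane genes of follicle cells reached at most 1.85 CPM there, with *Cp18*, *Vm26Ab* and *Vm32E* at 0. Control replicate 3 stands apart through the lowest maternal sum, 237 CPM. Their part in the results below was not tested, and values without these libraries are given where a call depends on them.

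The canonical subunits were all measured well above the detection limit. They took 0.741%, 0.715% and 0.693% of the counts outside ribosomal RNA genes in HP1-KD libraries, and 0.692%, 0.777%, 0.696% and 0.666% in control libraries. The Wilson 95% interval of the first HP1-KD share was 0.732% to 0.751%, and it covers counting error only, as do the other limits given here. The groups overlapped, so the share of counts outside ribosomal RNA genes taken by these genes did not separate HP1-KD from control libraries.

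Among themselves the canonical genes fell into a uniform and a graded set. To compare genes, levels were divided by exon length and are given as CPM per kilobase (kb). Core genes spanned mean levels of 128 to 194 CPM per kb in HP1-KD libraries, a range of 1.51-fold, and 133 to 215 CPM per kb in control libraries, a range of 1.62-fold. Regulatory genes spanned 6.32 to 143 CPM per kb in HP1-KD libraries, a range of 22.5-fold, and 7.62 to 157 CPM per kb in control libraries, a range of 20.7-fold. *Rpn12* was the regulatory gene at the level of the core, and the other 17 lay below the lowest core gene in both groups. The SD of log2 levels among the 14 core genes of 1 library was 0.10 to 0.18 in HP1-KD and 0.18 to 0.26 in control libraries. Among the 18 regulatory genes it was 1.24 to 1.34 in HP1-KD and 1.26 to 1.59 in control libraries.

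**Figure D1:**
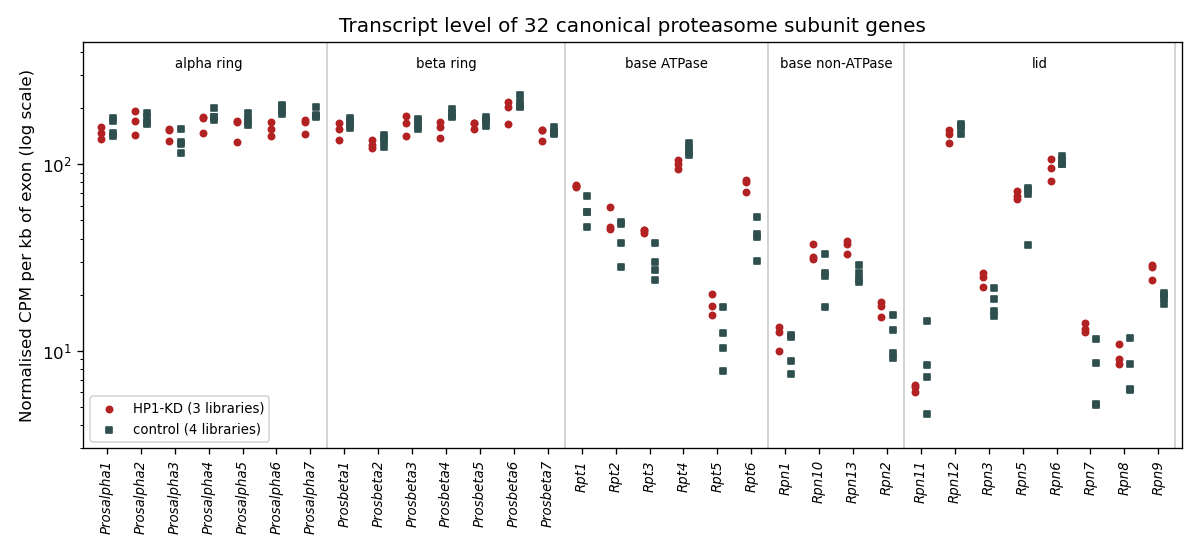
Level of each of the 32 canonical subunit genes in each library, in normalised CPM per kb of exon on a log axis. Red points are the 3 HP1-KD libraries, and dark squares to their right are the 4 control libraries. Genes are grouped by subcomplex. Core genes form a narrow band, while regulatory genes spread from 6.32 CPM per kb in HP1-KD embryos for *Rpn11* up to the core band for *Rpn12*.

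Of the 32 canonical genes, 3 were called, all higher in HP1-KD embryos (*Rpt6*, *Rpn13* and *Rpn9*), and all 3 belong to the regulatory particle. This is 9.38% of the canonical genes, against 8.59% of all genes tested in either direction, so the number called was near the background (3.7% of all genes tested were called higher and 4.9% lower). At an unadjusted p under 0.05 there were 8 genes higher and 3 lower. The share of all genes tested at that threshold was not computed, so these counts show no excess or lack. None was called lower by edgeR or limma-voom, while DESeq2's Wald test called *Prosalpha6* lower and 5 genes higher. In 7 genes every HP1-KD library lay above every control library and in 4 every one lay below, which is 21.9% and 12.5% of the 32, against 15.2% and 15.1% of all genes tested. The median log2 fold change was −0.02 over the canonical genes and −0.03 over all genes tested. In whole embryos, fewer cells of a type and less RNA per cell cannot be told apart in any of these values.

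The calls rest on few libraries. The number called higher was 6 without control replicate 3 (*Rpn13*, *Rpn2*, *Rpn7*, *Rpn9*, *Rpt5* and *Rpt6*), 2 without control replicate 2 (*Rpt3* and *Rpt6*) and 1 without control replicate 1 (*Rpt6*). It was 0 without control replicate 4 or without any 1 of the HP1-KD libraries.

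The core particle and the regulatory particle differed in sign more than in calls. Of the 14 core genes 13 had a log2 fold change below 0, with a median of −0.12 and none called, while of the 18 regulatory genes 14 had one above 0, with a median of 0.41 and 3 called. Over all 8008 genes tested, 3830 lay above 0 and 4178 below. The 3 calls are 16.7% of the regulatory genes, against 3.7% of all genes tested called higher and 8.59% called in either direction. Under total count scaling, where the median of all genes tested moved to −1.15, every canonical gene was below 0, and relative to that median the core lay at −0.06 and the regulatory particle at 0.39. The medians of the particles differed by 0.53 in the fit as given and by 0.44 to 0.58 in every alternative tried, total count scaling included; this difference between the particles is a description and was not tested.

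**Figure D2:**
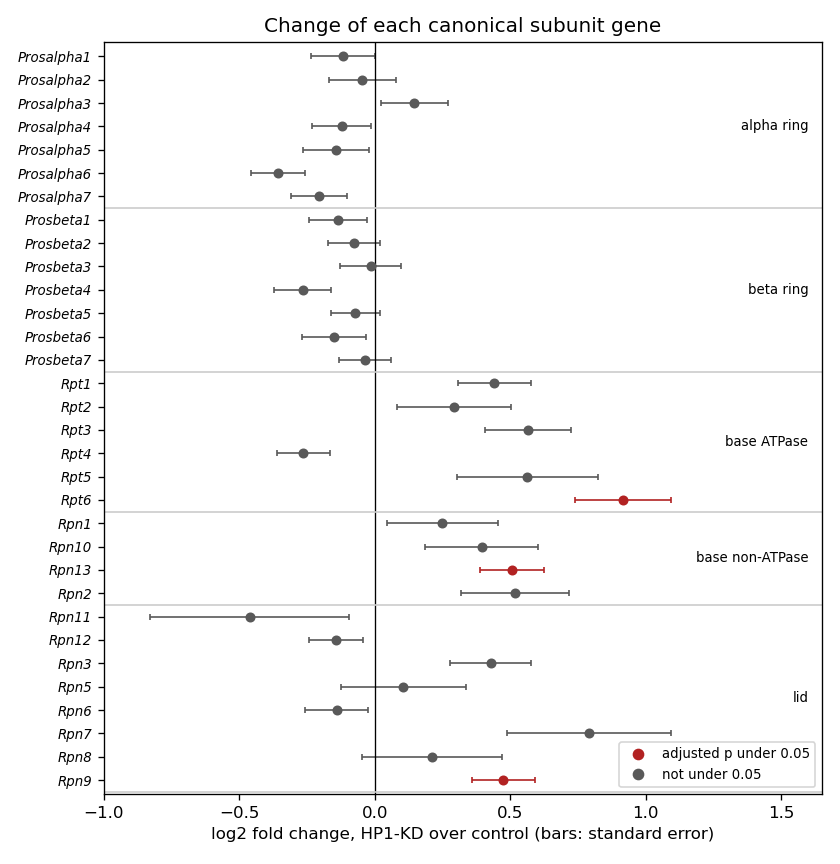
log2 fold change of each canonical gene, HP1-KD over control, with its standard error, ordered by subcomplex. Red points have an edgeR adjusted p under 0.05. *Rpt6*, *Rpn13* and *Rpn9* are the 3 called genes. Of the core genes *Prosalpha3* alone lies right of 0, while 14 of 18 regulatory genes do; under total count scaling all 32 lie left of 0.

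The alpha ring was measured with 7 genes, of which 6 had a log2 fold change below 0. *Prosalpha6* had 180, 166 and 151 CPM in HP1-KD libraries, against 208, 219, 222 and 199 CPM in control libraries. Its groups did not overlap, and the fold change was the most negative of the core (log2 −0.36, SE 0.10), with an edgeR adjusted p of 0.067. In dm6, *Prosalpha6* (FBgn0250843) occupies 2L:10221351-10222546, plus strand.

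*Prosalpha7* had 164, 168 and 141 CPM in HP1-KD libraries, against 197, 176, 178 and 178 CPM in control libraries. All HP1-KD libraries were lower, but the nearest, at 168 CPM, was close to the lowest control libraries at 176 CPM (log2 fold change −0.21, edgeR adjusted p = 0.223). *Prosalpha3* was the core gene with a positive value, at 148, 150 and 130 CPM in HP1-KD libraries, against 129, 150, 112 and 125 CPM in control libraries. The groups overlapped (log2 fold change 0.15, SE 0.12, edgeR adjusted p = 0.445). *Prosalpha3* was also the lowest alpha gene per length, with 147 ± 10.9 CPM per kb in HP1-KD (SD, n = 3) and 133 ± 16.2 CPM per kb in control libraries (SD, n = 4). The other 4 alpha genes, *Prosalpha1*, *Prosalpha2*, *Prosalpha4* and *Prosalpha5*, had log2 fold changes of −0.14 to −0.05 with overlapping groups.

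The beta ring holds the catalytic subunits *Prosbeta1*, *Prosbeta2* and *Prosbeta5* beside 4 structural ones. All 7 had a log2 fold change below 0 and none was called. *Prosbeta4*, a structural subunit, had 137, 129 and 113 CPM in HP1-KD libraries, against 153, 162, 145 and 147 CPM in control libraries. Its groups did not overlap (log2 fold change −0.27, SE 0.10, edgeR adjusted p = 0.139). The catalytic *Prosbeta1*, *Prosbeta2* and *Prosbeta5* had log2 fold changes of −0.14, −0.08 and −0.07 with overlapping groups. *Prosbeta6* had the highest level of all canonical genes, with 194 ± 25.5 CPM per kb in HP1-KD (SD, n = 3) and 215 ± 14.3 CPM per kb in control libraries (SD, n = 4). *Prosbeta2* had the lowest of the ring, with 128 ± 5.77 CPM per kb in HP1-KD and 135 ± 8.72 CPM per kb in control libraries. *Prosbeta3* was the least changed, at a log2 fold change of −0.01 (SE 0.11).

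The negative signs of the core leaned on 1 library. HP1-KD replicate 3 was the lowest of its group for 13 of the 14 core genes, and without it 10 of 14 core genes stayed below 0, with a median of −0.04. The summed level of the core was 2355, 2285 and 1973 CPM per kb in HP1-KD libraries, against 2371, 2525, 2374 and 2312 CPM per kb in control libraries. The groups overlapped, with HP1-KD replicate 3 below all others.

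The base ATPases form the ring of Rpt subunits that unfolds substrates, and 5 of 6 had a log2 fold change above 0. *Rpt6* had 116, 99.98 and 113 CPM in HP1-KD libraries, against 59.7, 73.0, 42.5 and 57.1 CPM in control libraries. The lowest HP1-KD library was above the highest control library, and *Rpt6* rose 1.89-fold (log2 fold change 0.92, SE 0.18, edgeR adjusted p = 0.022). It showed the largest log2 fold change of the canonical genes. *Rpt6* (FBgn0020369) occupies X:21316052-21317663, plus strand, with 3 exons.

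The exons of *Rpt6* overlap those of *CG1801* on the opposite strand, which was counted at 0.276 to 0.309 CPM in HP1-KD and 0.211 to 1.03 CPM in control libraries, far below *Rpt6*. The call on *Rpt6* passed in 13 of 19 alternatives. It was lost without HP1-KD replicate 1 (edgeR adjusted p = 0.101), without HP1-KD replicate 2 (0.063), without HP1-KD replicate 3 (0.113) and without control replicate 4 (0.072), while the log2 fold change stayed between 0.78 and 1.04 when any 1 library was left out.

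*Rpt3* and *Rpt1* also separated the groups without being called. *Rpt3* had 69.0, 66.4 and 69.3 CPM in HP1-KD libraries, against 46.4, 58.7, 41.9 and 37.4 CPM in control libraries (log2 fold change 0.57, SE 0.16, edgeR adjusted p = 0.066). *Rpt1* had 118, 115 and 114 CPM in HP1-KD libraries, against 84.5, 103, 69.7 and 84.2 CPM in control libraries (log2 fold change 0.44, SE 0.13, edgeR adjusted p = 0.082). Both were called by DESeq2's Wald test, with adjusted p-values of 0.019 for *Rpt3* and 0.031 for *Rpt1*. In both genes the HP1-KD libraries lay close together and the control libraries were spread.

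*Rpt5*, the lowest of the ring, had 32.7, 25.4 and 28.4 CPM in HP1-KD libraries, against 16.8, 20.3, 28.1 and 12.7 CPM in control libraries. Control replicate 3 overlapped the HP1-KD group (log2 fold change 0.56, SE 0.26, edgeR adjusted p = 0.195), and without it *Rpt5* was called higher (0.79, edgeR adjusted p = 0.028). *Rpt2* had 95.7, 73.3 and 74.9 CPM in HP1-KD libraries, against 61.4, 78.2, 79.9 and 45.5 CPM in control libraries, which overlapped (log2 fold change 0.29, edgeR adjusted p = 0.374).

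*Rpt4* was the exception of the ring. It had 148, 154 and 138 CPM in HP1-KD libraries, against 180, 171, 191 and 164 CPM in control libraries. Every HP1-KD library was below every control library (log2 fold change −0.26, SE 0.10, edgeR adjusted p = 0.128). *Rpt4* was also the most abundant of the 6, with 100.2 ± 5.40 CPM per kb in HP1-KD (SD, n = 3) and 120.3 ± 8.17 CPM per kb in control libraries (SD, n = 4), while *Rpt6* had 78.1 ± 6.04 CPM per kb in HP1-KD and 41.4 ± 8.90 CPM per kb in control libraries. *Rpt5* stood at 17.7 ± 2.27 CPM per kb in HP1-KD and 12.0 ± 4.01 CPM per kb in control libraries. The mean levels within the ring spanned 5.66-fold in HP1-KD and 10.1-fold in control libraries.

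**Figure D3:**
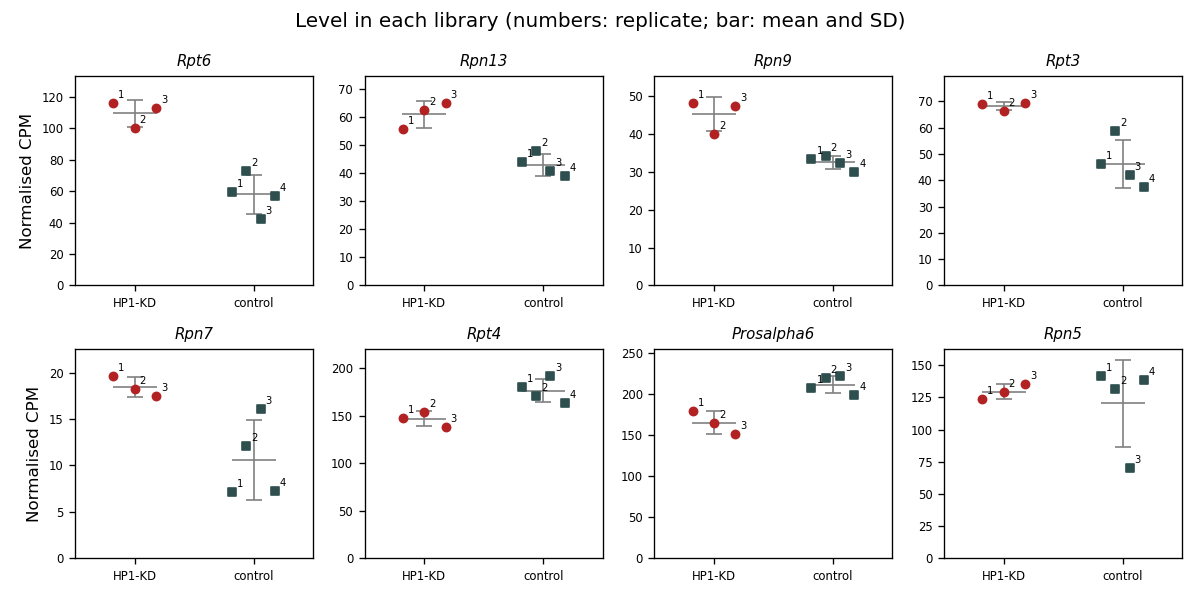
Normalised CPM of 8 canonical genes in each library, HP1-KD left and control right, with replicate numbers beside the points and the mean and SD as a grey bar. The y axes start at 0. The HP1-KD libraries lie above all control libraries for *Rpt6*, *Rpn13*, *Rpn9*, *Rpt3* and *Rpn7* and below them for *Rpt4* and *Prosalpha6*; for *Rpn5* control replicate 3 lies far below the rest.

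The 4 non-ATPases of the base were all above 0 in log2 fold change, with a median of 0.45. *Rpn13*, a receptor for ubiquitin, had 55.5, 62.6 and 64.9 CPM in HP1-KD libraries, against 43.9, 48.0, 40.7 and 39.0 CPM in control libraries. The groups did not overlap, and *Rpn13* rose 1.42-fold (log2 fold change 0.51, SE 0.12, edgeR adjusted p = 0.039). *Rpn13* (FBgn0033886) occupies 2R:13958545-13960404, minus strand, and overlaps no exon of another gene. Its call passed in 7 of 19 alternatives, and of the 7 that each left out 1 library it passed without control replicate 3 alone (edgeR adjusted p = 0.028, against 0.054 to 0.176 in the others).

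*Rpn10*, also a receptor for ubiquitin, had 52.9, 44.0 and 45.1 CPM in HP1-KD libraries, against 35.6, 36.9, 46.8 and 24.5 CPM in control libraries. Control replicate 3 again reached into the HP1-KD range (log2 fold change 0.39, SE 0.21, edgeR adjusted p = 0.245). *Rpn2*, a large scaffold subunit, had 62.6, 52.1 and 59.4 CPM in HP1-KD libraries, against 33.4, 44.2, 53.3 and 31.1 CPM in control libraries. It overlapped through control replicate 3 too (log2 fold change 0.52, SE 0.20, edgeR adjusted p = 0.136), and without that library it was called higher (0.67, edgeR adjusted p = 0.023). *Rpn1*, the scaffold that docks shuttle factors, was the lowest of the 4, with 12.0 ± 1.84 CPM per kb in HP1-KD (SD, n = 3) and 10.1 ± 2.26 CPM per kb in control libraries (SD, n = 4), and a log2 fold change of 0.25 (edgeR adjusted p = 0.434).

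The lid was mixed, with 5 of 8 genes above 0 and a median log2 fold change of 0.16. *Rpn9*, a structural subunit, had 48.1, 40.1 and 47.5 CPM in HP1-KD libraries, against 33.5, 34.1, 32.4 and 30.1 CPM in control libraries. The groups did not overlap, and *Rpn9* rose 1.39-fold (log2 fold change 0.47, SE 0.12, edgeR adjusted p = 0.046). *Rpn9* (FBgn0028691) occupies 3R:23731375-23733462, minus strand. Its exons overlap those of *CG10365* on the opposite strand, which had a log2 fold change of 0.28 with overlapping groups. How the counting treated strands is not given in the sources used here. The call on *Rpn9* passed in 4 of 19 alternatives, and of those that left out 1 library it passed without control replicate 3 alone (edgeR adjusted p = 0.031, against 0.057 to 0.177 in the others).

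*Rpn7* had the largest log2 fold change of the lid at a low level. It had 19.6, 18.2 and 17.5 CPM in HP1-KD libraries, against 7.12, 12.0, 16.1 and 7.25 CPM in control libraries. The groups did not overlap, but the control libraries spread 2.25-fold (log2 fold change 0.79, SE 0.30, edgeR adjusted p = 0.133), and without control replicate 3 *Rpn7* was called higher (1.05, edgeR adjusted p = 0.019). *Rpn3* had 45.5, 40.3 and 47.9 CPM in HP1-KD libraries, against 34.8, 39.5, 28.2 and 30.0 CPM in control libraries, with the nearest pair 40.3 and 39.5 CPM (log2 fold change 0.43, SE 0.15, edgeR adjusted p = 0.107).

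*Rpn11*, the enzyme of the lid that removes ubiquitin from substrates, was the lowest canonical gene per length over the 7 libraries and in HP1-KD libraries, at 6.32 CPM per kb in HP1-KD and 8.68 CPM per kb in control libraries, while in control libraries *Rpn7* (7.62 CPM per kb) and *Rpn8* (8.15 CPM per kb) lay lower. It had 7.25, 7.90 and 7.75 CPM in HP1-KD libraries, against 5.52, 10.2, 17.5 and 8.70 CPM in control libraries. The HP1-KD values fell inside the control range, which spanned 3.18-fold, the widest of the canonical genes (log2 fold change −0.46, SE 0.37, edgeR adjusted p = 0.423). *Rpn8*, which pairs with *Rpn11* in the lid, was similarly low, with 12.96, 13.8 and 16.6 CPM in HP1-KD libraries, against 9.50, 17.9, 9.57 and 12.9 CPM in control libraries (log2 fold change 0.21, edgeR adjusted p = 0.593).

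*Rpn12* and *Rpn6* were the abundant lid genes, and *Rpn12* had the highest level per length of the regulatory particle. *Rpn12* stood at 142.5 ± 11.4 CPM per kb in HP1-KD (SD, n = 3) and 157 ± 8.11 CPM per kb in control libraries (SD, n = 4), with a log2 fold change of −0.14 (edgeR adjusted p = 0.358). *Rpn6* stood at 94.6 ± 12.8 CPM per kb in HP1-KD and 104 ± 5.15 CPM per kb in control libraries, with a log2 fold change of −0.14 (edgeR adjusted p = 0.437). *Rpn5* had 124, 129 and 136 CPM in HP1-KD libraries, against 141, 132, 70.4 and 139 CPM in control libraries. Its positive log2 fold change of 0.11 came with control replicate 3, and without that library it was −0.09.

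Regulatory genes were less uniform than core genes between control libraries. The highest control library exceeded the lowest by a median of 1.66-fold over the 18 regulatory genes and of 1.13-fold over the 14 core genes. Between HP1-KD libraries the same medians were 1.18-fold and 1.20-fold. Among control libraries, replicate 2 was highest for 9 and replicate 3 for 8 of the 18 regulatory genes, and replicate 4 was lowest for 10. The HP1-KD group has 3 libraries and the control group 4, which by itself widens the range of the control group.

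The balance between the particles was then compared within each library, where scaling between libraries does not enter. The summed level of the regulatory genes was 37.9%, 36.5% and 41.9% of that of the core genes in HP1-KD libraries, against 32.1%, 32.9%, 31.6% and 30.3% in control libraries. Every HP1-KD library was above every control library, with means of 38.8% ± 2.79 in HP1-KD (SD, n = 3) and 31.7% ± 1.09 in control libraries (SD, n = 4). The share of ribosomal RNA also differed between the groups, with means of 65.7% in HP1-KD and 24.5% in control libraries, and its part in this ratio was not tested. The sums are led by the abundant genes, so the median gene was compared as well. Relative to the control mean, the median regulatory gene exceeded the median core gene by 0.49, 0.32 and 0.71 on the log2 scale in HP1-KD libraries, against 0.02, 0.06, 0.03 and −0.10 in control libraries. The control libraries make up that mean, so their values are held close to no difference by construction. The gap between the groups on this measure is a description and adds no separate support to the ratio.

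Neither sum alone separated the groups. The regulatory sum was 892, 834 and 826 CPM per kb in HP1-KD libraries, against 762, 829.6, 751 and 699.8 CPM per kb in control libraries, where HP1-KD replicate 3 lay just below control replicate 2. By subcomplex, the base ATPases summed to 385, 356 and 358 CPM per kb in HP1-KD libraries, against 299, 334, 300.3 and 268 CPM per kb in control libraries. The base non-ATPases summed to 101, 93.6 and 101 CPM per kb in HP1-KD libraries, against 69.9, 79.5, 85.1 and 57.2 CPM per kb in control libraries. Both base sums separated the groups. That of the ATPases includes the called *Rpt6*, with means of 78.1 CPM per kb in HP1-KD and 41.4 CPM per kb in control libraries. Its separation is therefore not a shift shared by the whole ring, where *Rpt2* and *Rpt5* overlapped and *Rpt4* was lower in HP1-KD libraries. The lid summed to 406, 384 and 367 CPM per kb in HP1-KD libraries, against 393, 416, 365 and 375 CPM per kb in control libraries, and overlapped.

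**Figure D4:**
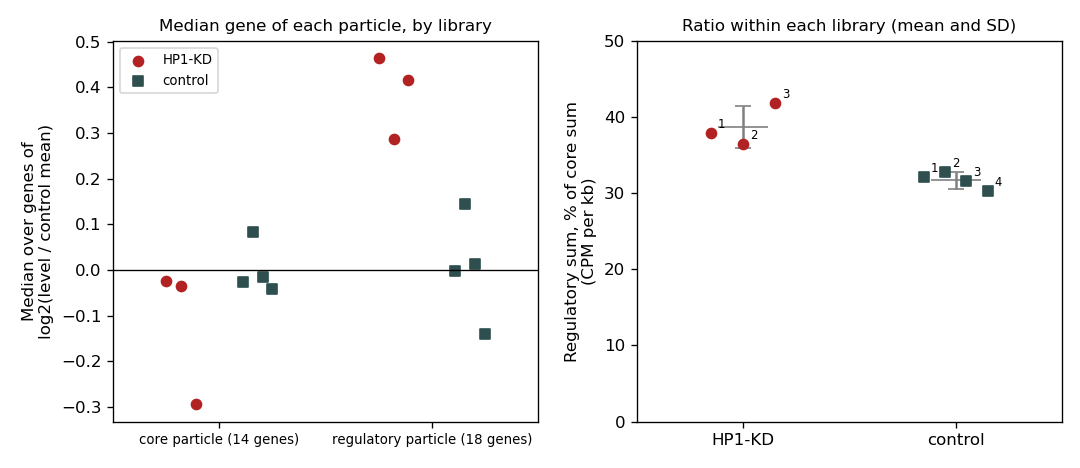
Left, median over the genes of each particle of log2 of the level relative to the control mean, 1 point a library; right, summed level of the 18 regulatory genes as a percentage of that of the 14 core genes, with the mean and SD. HP1-KD libraries (red, left of control) lie between 36.5% and 41.9% and control libraries between 30.3% and 32.9%. In the left panel the control libraries make up the mean they are compared with, which holds them close to it.

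Genes at a higher level had lower log2 fold changes across the canonical set. The correlation of log2 mean level per kb with the log2 fold change was r = −0.59 over 32 genes, −0.58 over the 14 core genes and −0.24 over the 18 regulatory genes, against 0.16 over 7937 genes tested. Genes are not independent replicates, both measures come from the same libraries, and these are descriptions without a test. The 3 regulatory genes above 90 CPM per kb over all libraries (*Rpn12*, *Rpt4* and *Rpn6*) all had a log2 fold change below 0, like 13 of 14 core genes, with a median of −0.14. Of the 15 at or below that level 14 were above 0, with a median of 0.44, and *Rpn11*, the lowest over all libraries, was the exception. The division at 90 CPM per kb was chosen after the values were seen, and the nearest genes to it were *Rpn6* at 100.1 and *Rpn5* at 65.6 CPM per kb. Under total count scaling all 18 were below 0.

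**Figure D5:**
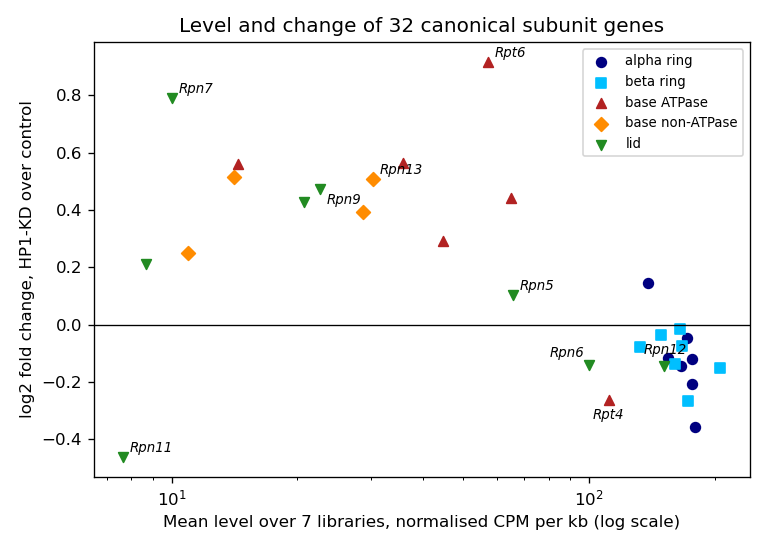
log2 fold change of each canonical gene, HP1-KD over control, against its mean level over the 7 libraries in normalised CPM per kb on a log axis, with symbols by subcomplex. Core genes cluster at high level, 13 of 14 below 0 and *Prosalpha3* above; *Rpn12*, *Rpt4* and *Rpn6* lie with them, and 14 of the other 15 regulatory genes lie above 0. Under total count scaling all points lie below 0.

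The canonical genes lie on X (4 genes), 2L (4), 2R (10), 3L (5) and 3R (9), none on chromosome 4, and the called genes are on X, 2R and 3R. Of the 32 genes 13 overlap exons of a gene on the opposite strand and none overlaps a gene on the same strand.

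The 16 paralogues, several of which are known from the testis, were nearly silent. In 6 of them (*Prosalpha3T*, *Prosalpha4T1*, *Prosbeta2R1*, *Prosbeta4R1*, *Prosbeta5R1* and *Prosbeta5R2*) no read was counted in any library, and in another 6 (*Prosalpha4T2*, *Prosalpha6T*, *Prosbeta4R2*, *Rpn12R*, *Rpn13R* and *Rpt4R*) no library reached 3 counts. A count of 3 corresponds to 0.129 to 0.463 CPM, so lower levels were not detectable at this depth. Of the 4 with 3 or more counts in a library, *Prosalpha1R* and *Rpt3R* passed the filter on low counts and were tested, and neither was called.

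*Rpt3R* had 3.09, 2.39 and 2.73 CPM in HP1-KD libraries, against 1.26, 1.06, 1.67 and 1.70 CPM in control libraries. The groups did not overlap (log2 fold change 0.93, SE 0.30, edgeR adjusted p = 0.088), on 18 to 39 counts a library. Its exons overlap those of *Alg12* on the opposite strand, which had a log2 fold change of −0.11. The canonical *Rpt3* was far more abundant, at 66.4 to 69.3 CPM in HP1-KD and 37.4 to 58.7 CPM in control libraries.

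*Prosalpha1R* had 1.39, 1.19 and 0.287 CPM in HP1-KD libraries, against 0.977, 1.80, 1.33 and 1.10 CPM in control libraries, and the groups overlapped (log2 fold change −0.43, edgeR adjusted p = 0.572). It lies 1734 bp from *Prosalpha1* on 2R, and its counts were 0.706% of those of *Prosalpha1* in HP1-KD and 0.870% in control libraries. Since reads shared between near-identical copies may be split, this level is uncertain. *Rpt6R* had 3, 4 and 3 counts in HP1-KD libraries, against 0, 0, 9 and 4.5 counts in control libraries. *Prosbeta2R2* had 0, 2.5 and 2.5 counts in HP1-KD libraries, against 2, 2.5, 16 and 6 counts in control libraries. Of 14 testis markers, 5 had no count in any library and 2 were tested, of which *bam*, which promotes germ cell differentiation, was called higher (log2 fold change 1.36, edgeR adjusted p = 0.026) and *mia* had a log2 fold change of −1.02 (edgeR adjusted p = 0.125). The 4 markers of pole cells and germ line summed to 129 to 183 CPM in HP1-KD and 58.6 to 135 CPM in control libraries. Among them *ovo*, a germ line transcription factor, was called higher (log2 fold change 1.41, edgeR adjusted p = 0.040). In whole embryos these transcripts cannot be assigned to pole cells, and *pgc* is also among the maternal transcripts above. With 1 library left out, *bam* lost its call without any HP1-KD library or control replicate 4 (edgeR adjusted p = 0.083 to 0.107), and *ovo* without any HP1-KD library or control replicate 2 or 4 (edgeR adjusted p = 0.077 to 0.180). Their part in the level of *Rpt3R* was not tested.

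Genes that act with the proteasome were compared from short lists. None of 8 genes for its assembly, activation and inhibition was called, with a median log2 fold change of 0.06. At an unadjusted p under 0.05 there was 1, *Tnks*, a poly-ADP-ribosyltransferase that acts on the proteasome inhibitor *PI31*. *Tnks* had 75.3, 77.2 and 68.6 CPM in HP1-KD libraries, against 61.7, 53.7, 53.3 and 52.0 CPM in control libraries, without overlap (log2 fold change 0.42, SE 0.11, edgeR adjusted p = 0.052). *Pomp*, the chaperone of core assembly, had a log2 fold change of −0.01, and *PI31* of −0.12.

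Of 4 regulators of proteasome genes none was called, and *rngo* was the 1 with an unadjusted p under 0.05. *cnc*, whose product activates proteasome genes in flies under stress, had 69.4, 61.2 and 82.6 CPM in HP1-KD libraries, against 67.8, 68.3, 40.0 and 56.7 CPM in control libraries. These overlapped (log2 fold change 0.29, SE 0.20, edgeR adjusted p = 0.369). Among 7 genes for ubiquitin, its activating enzyme and shuttle factors, *RpL40*, which encodes ubiquitin fused to a ribosomal protein, was called higher. It had 464, 459 and 425 CPM in HP1-KD libraries, against 307, 365, 356 and 327 CPM in control libraries, without overlap (log2 fold change 0.41, SE 0.10, edgeR adjusted p = 0.048). With 1 library left out it stayed called without control replicate 3 alone (edgeR adjusted p = 0.038, against 0.058 to 0.153 in the others). *RpS27A*, the other such fusion, had 701, 695 and 637 CPM in HP1-KD libraries, against 706, 832, 736 and 757 CPM in control libraries. Its groups did not overlap either, with HP1-KD below (log2 fold change −0.16, SE 0.11, edgeR adjusted p = 0.343). *Uba1*, the activating enzyme, was higher without overlap and at an unadjusted p under 0.05 (log2 fold change 0.38, edgeR adjusted p = 0.119). The polyubiquitin gene *Ubi-p63E* had a log2 fold change of 0.04 (edgeR adjusted p = 0.893).

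The COP9 signalosome, a complex built much like the lid, gave 7 genes tested and none called. *CSN8* was the 1 at an unadjusted p under 0.05, and it was higher in HP1-KD (log2 fold change 0.31, edgeR adjusted p = 0.135). The median log2 fold change of the complex was −0.15, and 5 of the 7 genes were below 0, against 3 of 8 in the lid. Every HP1-KD library lay above every control library for *CSN8* and below for *CSN1b* and *CSN5*. Of all genes tested, 15.2% lay above and 15.1% below in this way. Of the p97 segregase, which extracts ubiquitin-tagged proteins ahead of the proteasome, *Npl4* and *p47* had log2 fold changes of 0.28 and 0.25 with edgeR adjusted p-values of 0.443 and 0.462. *TER94*, *Ufd1-like* and *CSN2* were not analysed here.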

How the data were processed

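For 7 libraries the authors deposited a table of estimated counts by FlyBase gene, from libraries made with a stranded total RNA kit, in steps of 0.5 and not normalised. The submitters' processing notes name STAR and dm6; the counting program, the annotation and the use of strand are not given in the sources used here. The tissue label of HP1-KD samples names WT embryos, while title and genotype name the knockdown and were followed. Columns were matched to samples by title.

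Counts were rounded, filtered with filterByExpr (8008 of 17699 genes kept), scaled with TMM factors and compared with edgeR 4.0.16 (estimateDisp, glmQLFit, glmQLFTest; R 4.3.3), fitting the condition alone. The SE is the log2 fold change divided by the square root of F. CPM use the TMM-scaled sum over tested genes. Exon lengths and positions came from release 115 of the Ensembl annotation of the same assembly, with exons of a gene merged. The fit was tested on simulated data. Within each group, no 2 libraries agreed within sampling noise.

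Named with values were called genes; in each subcomplex the largest rise, largest fall, highest and lowest level; paralogues reaching 3 counts; and called genes of the other lists. Further members were added to complete each subcomplex. The members and lists were chosen with earlier results of these data known. Alternatives covered scaling (DESeq2 1.42.0 size factors, upper quartile, total count), filters, ribosomal RNA removal, protein-coding genes, a robust fit, the replicate block, DESeq2's Wald test, limma-voom (3.58.1) and each library left out; leaving out HP1-KD replicate 1 together with control replicate 3 was chosen after seeing the data. Promoter motifs and sequences were not analysed here.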

Additional observations from a re-analysis of the deposited data

Results flagged for a closer look

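Among the control libraries of the 34 tested genes, 2 values stood far from the other 3 by Dixon's ratio of the gap to the range, and chance gives such values in about 5% of groups. *Prosalpha7* in control replicate 1 was the highest at 197 CPM, with the others at 176 to 178 CPM. *Rpn5* in control replicate 3 was the lowest at 70.4 CPM, with the others at 132 to 141 CPM. HP1-KD libraries number 3 and were not examined in this way.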

How the results depend on the processing

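Of 721 recomputed log2 fold changes of named genes, 634 kept their direction and their side of the threshold, 57 kept the direction and lost the call, 7 gained a call and 23 changed sign. Genes that were not called can lose no call, so these totals say little about the called ones. Of 19 alternatives *Rpt6* and *bam* stayed called in 13 each, *ovo* in 10, *Rpn13* in 7, *RpL40* in 6 and *Rpn9* in 4. *Su(var)2-5* stayed called in all 19. Under total count scaling the median of all genes moved to −1.15 and 1095 genes were called, 31 higher and 1064 lower, against 688 genes, 296 higher and 392 lower, with TMM factors. The canonical median was then −1.14, with 0 canonical genes higher. The log2 fold changes that changed sign there were *Rpt1* −0.69, *Rpt2* −0.90, *Rpt3* −0.58, *Rpt5* −0.65, *Rpt6* −0.26, *Rpn1* −0.99, *Rpn2* −0.69, *Rpn3* −0.75, *Rpn5* −0.99, *Rpn7* −0.39, *Rpn8* −0.98, *Rpn9* −0.71, *Rpn10* −0.77, *Rpn13* −0.59, *Prosalpha3* −0.95, *Rpt3R* −0.29 and *RpL40* −0.72. Relative to the median of all genes under that scaling, *Rpt6* lay at 0.89, *Rpn13* at 0.56 and *Rpn9* at 0.44.

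The genes called numbered 439 with at least 10 counts in every library, 404 among protein-coding genes, 1488 with DESeq2's Wald test and 181 to 1212 with each library left out. Canonical genes called higher numbered 1 with upper quartile scaling, with no filter, with at least 10 counts in every library or among protein-coding genes, 2 with ribosomal RNA genes removed or limma-voom, 3 with DESeq2 size factors or the robust fit, 5 with DESeq2's Wald test (which called 1 lower) and 0 to 6 with each library left out. Leaving out HP1-KD replicate 1 and control replicate 3 together gave 2, and *Rpn5* was then −0.043. With each library left out the canonical median ranged from −0.057 to 0.063, *Rpn5* from −0.089 to 0.19, *Prosalpha2* from −0.14 to 0.058, *Prosbeta3* from −0.080 to 0.074 and *Prosbeta7* from −0.067 to 0.028. The causes of these differences were not tested.

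Replicate numbers are shared by the labels, but same-numbered libraries deviated together in 1 of 3 pairs (r = 0.41, −0.13 and 0.06), so the replicate block is given here only. With it 96 genes and 0 canonical genes were called, *Rpt6* having a log2 fold change of 0.94 (edgeR adjusted p = 0.132), and control replicate 4 had no partner. HP1-KD replicates 1 and 3 correlated best with their own number, and HP1-KD replicate 2 with control replicate 3 (r = 0.31). Depth limits the paralogues, of which 12 reached no more than 2 counts in any library.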
